A study of Mus musculus with 6 samples.

Results

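The 10 genes described here encode transcription factors of haematopoietic stem cells (HSCs), which renew themselves and supply all blood lineages. They were taken by symbol from the deposited expression table for their known role in stem cell identity, 10 of the 47937 genes listed, and all 10 were among the 11805 genes tested. 7 of them, Fli1, Erg, Gata2, Runx1, Tal1, Lyl1 and Lmo2, form the stem cell heptad, and the other 3 are Hlf, Mecom and Meis1. Polyadenylated RNA had been sequenced from HSCs of 8-week-old wild-type C57BL/6 mice, male by the labels. Bone marrow was depleted of lineage cells and sorted for Kit, Sca-1 and Slam1 and against CD34, CD48 and Flt3. The HSCs that carried the surface receptor CD93 (CD93pos) and those that did not (CD93neg) gave 3 libraries per fraction, and the question is how their transcripts differ. The labels name 3 biological replicates without tying libraries to animals, so p-values measure the spread between these libraries.

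The heptad factors bind DNA together at enhancers of blood stem and progenitor cells, including enhancers of their own genes. Tal1 and Lyl1 are related basic helix-loop-helix proteins that pair with E proteins, Lmo2 is the LIM-only adaptor that bridges them to Gata2 through Ldb1, Erg and Fli1 are related ETS factors, and Runx1 binds DNA with its partner Cbfb. Hlf is a PAR-family basic leucine zipper factor that marks primitive HSCs, Mecom encodes the zinc finger factor Evi1, and Meis1 is a homeodomain factor that works with Pbx and Hox proteins. Mouse HSCs that lose Mecom, Gata2 or Meis1 function are impaired in self-renewal or maintenance.

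Sequence before the transcription start is shown for Lyl1 and Hlf, the genes whose groups do not overlap, and for Tal1, the nearest relative of Lyl1, which does not share that pattern. These are 250 bases on the gene's own strand, from RefSeq on GRCm38.p6, and Tal1 has 2 starts. Capitals mark matches, on either strand, to a GATA motif (GATAA), an ETS motif (GGAAG), an E-box (CAGATG) or a RUNX motif (TGTGGT).
Lyl1, chr8:84701207-84701456, plus strand: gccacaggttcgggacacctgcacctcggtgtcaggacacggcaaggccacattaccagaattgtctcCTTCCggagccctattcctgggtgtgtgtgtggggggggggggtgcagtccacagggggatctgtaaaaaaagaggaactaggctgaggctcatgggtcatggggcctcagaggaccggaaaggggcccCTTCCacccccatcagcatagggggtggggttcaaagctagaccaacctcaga
Hlf, chr11:90390918-90391167, minus strand: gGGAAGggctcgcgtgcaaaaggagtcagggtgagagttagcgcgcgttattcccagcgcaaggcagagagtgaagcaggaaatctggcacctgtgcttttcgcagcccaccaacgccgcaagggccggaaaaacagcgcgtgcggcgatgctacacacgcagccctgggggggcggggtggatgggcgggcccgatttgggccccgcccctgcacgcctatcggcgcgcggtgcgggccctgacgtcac
Tal1 upstream start, chr4:115056176-115056425, plus strand: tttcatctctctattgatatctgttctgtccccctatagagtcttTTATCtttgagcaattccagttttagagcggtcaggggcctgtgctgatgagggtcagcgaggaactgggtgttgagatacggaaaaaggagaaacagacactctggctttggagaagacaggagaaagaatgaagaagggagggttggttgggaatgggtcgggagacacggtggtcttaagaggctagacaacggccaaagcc
Tal1 downstream start, chr4:115057561-115057810, plus strand: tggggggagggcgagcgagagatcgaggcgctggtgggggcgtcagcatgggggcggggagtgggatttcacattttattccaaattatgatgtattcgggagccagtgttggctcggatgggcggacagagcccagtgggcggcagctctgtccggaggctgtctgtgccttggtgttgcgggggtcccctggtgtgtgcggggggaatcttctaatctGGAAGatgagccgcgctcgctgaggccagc
The Lyl1 window holds 2 ETS matches and the Hlf window 1, with none of the other motifs. The upstream Tal1 window holds 1 GATA match and the downstream one 1 ETS match. That downstream window lies inside the Tal1 gene, and its end and the end of the Lyl1 window lie in an annotated transcript. Among all 32851 promoter windows of that length, 64.1% hold the ETS letters, 22.6% the GATA letters, 14.4% the E-box and 14.0% the RUNX letters. Entries were found for 8 of the 10 genes, all but Lmo2 and Fli1, with 14 starts in all, of which 8 held an ETS match, 4 a GATA match, 1 an E-box and 1 a RUNX match.

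Reads assigned to genes numbered 5794528 to 9509304 in the CD93pos libraries and 2832653 to 4614396 in the CD93neg libraries. CD93neg replicate 1 stood apart, with no read for 71.0% of the tested genes, against 2.10% to 26.4% in the other 5 libraries, so fold changes are also given without it. Cd93 itself had 906, 1001 and 550 reads in CD93pos, against 0, 419 and 38 in CD93neg, and its level in CD93neg replicate 2 lay within the CD93pos range, so groups are given as labelled. Although the labels call the mice male, the Y-linked genes Ddx3y, Kdm5d and Uty had no read in any CD93neg library, against 7 to 855 in CD93pos. Y-linked Eif2s3y had 888, 750 and 768 reads in CD93pos, against 1, 0 and 0 in CD93neg. Xist, transcribed from the inactive X, had 0, 0 and 12 reads in CD93pos, against 0, 2419 and 1143 in CD93neg. CD93neg replicate 1 thus had no Xist read and, of these Y-linked genes, only the 1 read of Eif2s3y. Sex-linked reads differed along with the fractions, so sex and fraction cannot be told apart in the fold changes. Neutrophil markers, in reads scaled to the assigned total (CPM), summed to 288, 17.9 and 93.8 CPM in CD93pos and 0, 12569.8 and 8452 CPM in CD93neg, and B lineage markers to 62.4, 62.8 and 73.4 CPM in CD93pos and 0.353, 6619 and 14739 CPM in CD93neg. Most of the B lineage sum was Igkc in CD93neg, at 0, 6255 and 14306 CPM, and Cd79b in CD93pos, at 61.4, 62.8 and 48.8 CPM. Cd79b had 0, 170 and 113 CPM in CD93neg, while Cd79a and Ms4a1 were read only in CD93neg replicates 2 and 3. The part of these differences in the values below was not tested. In bulk RNA, fewer cells of a type and less RNA per cell cannot be told apart.

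Lyl1 and Hlf were the 2 genes of the 10 whose CD93pos libraries all lay below every CD93neg library, and neither difference passed the test. Leaving out the sparse CD93neg replicate 1, both still lay lower in CD93pos, by log2 fold changes of -1.17 for Lyl1 and -0.93 for Hlf. Gata2, Tal1 and Erg each had a single read in CD93neg replicate 1 and at least 236 in every other library, and their log2 fold changes were 0.42, 0.017 and -0.73 without it. Hlf, Meis1, Runx1, Fli1 and Lyl1 had their highest value of all in that same library.

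**Figure D1:**
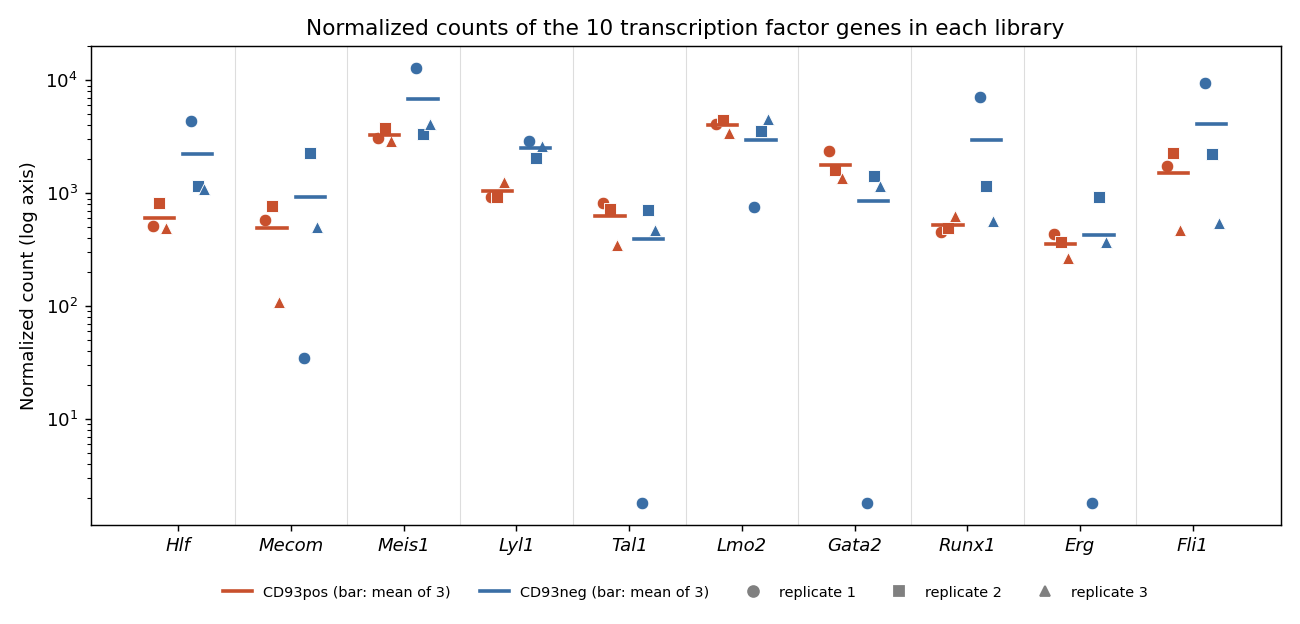
Normalized counts (log axis) of the 10 genes in each library, CD93pos at the left and CD93neg at the right of each gene, with shapes for replicates and bars for the mean of 3. Gata2, Tal1 and Erg sit at 1.82 in CD93neg replicate 1, which is 1 read, while Meis1 reaches 12958 there.

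Values are normalized counts, that is, reads divided by the authors' size factor of the library. Fold changes are log2 differences of normalized count + 1, CD93pos over CD93neg, tested with limma over all 11805 genes and called below an adjusted p of 0.05 (Benjamini-Hochberg). None of the 10 genes passed in either direction, and the same test called 0.0% of all tested genes as higher and 0.0% as lower. At an unadjusted p under 0.05, 1 of the 10, Lyl1, was lower, against 0.381% of all tested genes, and 0 were higher, against 11.8%. Once CD93neg replicate 1 was left out, 0 of the 10 passed, against 0.00847% of all tested genes called lower, and Lyl1 and Hlf were lower at an unadjusted p under 0.05, against 4.4%. 0 were higher at that p, against 12.5%. edgeR and DESeq2 called 0 of the 10, and so did the authors' deposited table, which called 5.97% of its genes. Groups did not overlap for 2 of the 10, both lower in CD93pos, against 1.92% of all tested genes, and for 0 that were higher, against 18.3%. On CPM the same 2 did not overlap, against 1.74% lower and 18.8% higher, and without CD93neg replicate 1 again these 2, against 13.8% lower and 21.8% higher.

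Lyl1 (ENSMUSG00000034041.4, chromosome 8, 84701457 to 84704715 on GRCm38) had normalized counts of 923, 928 and 1271 in CD93pos and 2919, 2059 and 2609 in CD93neg. The highest CD93pos library lay well below the lowest CD93neg library, and the CD93neg libraries were more alike for Lyl1 than for any other of the 10 (coefficient of variation 17.2%). Its mean was 1041 ± 199 in CD93pos, against 2529 ± 436 in CD93neg (n = 3 each, SD), and its log2 fold change was -1.28 (standard error 0.47; limma adjusted p = 0.288). Without CD93neg replicate 1 it was -1.17 (95% interval -1.83 to -0.51; limma adjusted p = 0.116). Lyl1 lies inside Nfix, on the other strand, and with no strand setting given, reads where their exons overlap cannot be told apart. Nfix had 405, 139 and 315 reads in CD93pos, against 20, 29 and 270 in CD93neg, with overlap between the groups.

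Tal1 (ENSMUSG00000028717.12, chromosome 4, 115056426 to 115071755), its relative, had 818, 723 and 348 in CD93pos and 1.82, 714 and 477 in CD93neg. The groups overlapped, and the value of CD93neg replicate 1 is 1 read. Tal1 had a log2 fold change of 2.58 (standard error 2.40; limma adjusted p = 0.625), which was 0.017 without CD93neg replicate 1 (95% interval -1.24 to 1.27).

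A share within a library does not depend on how libraries are scaled, so the Tal1 share of all Tal1 and Lyl1 reads was compared. It was 47.0%, 43.8% and 21.5% in CD93pos and 0.0622%, 25.8% and 15.5% in CD93neg. The exact 95% binomial interval, which covers counting error only, was 19.9% to 23.1% for the lowest CD93pos library and 24.2% to 27.4% for the highest CD93neg library, and these 2 made the groups overlap. The mean share was 37.4 ± 13.9% in CD93pos, against 13.8 ± 12.9% in CD93neg (n = 3 each, SD), a difference of 23.7 points with an exact two-sided permutation p of 0.2, or 0.4 adjusted over the 2 shares tested, where 3 against 3 libraries allow no p below 0.1. Leaving out CD93neg replicate 1, the difference was 16.8 points (exact permutation p = 0.3).

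Lmo2 (ENSMUSG00000032698.15, chromosome 2, 103957986 to 103981878), the adaptor between the helix-loop-helix factors and Gata2, had 4089, 4441 and 3453 in CD93pos and 755, 3587 and 4581 in CD93neg. It varied least of the 10 within CD93pos (coefficient of variation 12.5%), and only CD93neg replicate 1 was far from the other libraries. Lmo2 had a log2 fold change of 0.78 (standard error 0.62; limma adjusted p = 0.614), and of -0.029 without CD93neg replicate 1 (95% interval -0.51 to 0.45).

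Gata2 (ENSMUSG00000015053.14, chromosome 6, 88193891 to 88207032), the zinc finger factor of the heptad, had 2348, 1599.8 and 1364 in CD93pos and 1.82, 1435 and 1150.3 in CD93neg. CD93neg replicate 2 lay above CD93pos replicate 3, so the groups overlapped. The log2 fold change of Gata2 was 3.37 (standard error 2.33; limma adjusted p = 0.58), and 0.42 without CD93neg replicate 1 (95% interval -0.34 to 1.19). Gata2 is also transcribed in mast cells, basophils and erythroid precursors, and Tal1 in mast and erythroid cells. All 6 mast cell and basophil markers were read in each CD93pos library and 0, 1 and 0 of them in the CD93neg libraries, and they summed to 94.7, 1057 and 696 CPM in CD93pos and 0, 27.5 and 0 CPM in CD93neg. Within CD93pos, these markers were highest in replicate 2, and Gata2 and Tal1 in replicate 1. The 7 erythroid markers summed to 390.0, 308 and 633 CPM in CD93pos and 228, 6.50 and 75.9 CPM in CD93neg. The part of mast cell, basophil or erythroid transcripts in the Gata2 and Tal1 values was not tested.

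Of the ETS pair, Erg (ENSMUSG00000040732.18, chromosome 16, 95359169 to 95586593) had 438, 372 and 268 in CD93pos and 1.82, 921 and 369 in CD93neg. CD93neg replicates 1 and 2 were the lowest and the highest library of all 6. The log2 fold change of Erg was 1.84 (standard error 2.48; limma adjusted p = 0.701), and -0.73 without CD93neg replicate 1 (95% interval -2.08 to 0.63), so its direction turned with that library. Fli1 (ENSMUSG00000016087.13, chromosome 9, 32422204 to 32542861) had 1762, 2290.0 and 477 in CD93pos and 9442, 2231 and 549 in CD93neg. The replicates 3 of both fractions were low and CD93neg replicate 1 was high. Fli1 had a log2 fold change of -0.86 (standard error 1.06; limma adjusted p = 0.678), which turned to 0.17 without CD93neg replicate 1 (95% interval -2.10 to 2.44).

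The Erg share of Erg and Fli1 reads was 19.9%, 14.0% and 36.0% in CD93pos and 0.0192%, 29.2% and 40.2% in CD93neg, with overlap. Its mean was 23.3 ± 11.4% in CD93pos, against 23.1 ± 20.8% in CD93neg (n = 3 each, SD), a difference of 0.127 points (exact two-sided permutation p = 1). That difference was -11.4 points without CD93neg replicate 1 (exact permutation p = 0.3) and -6.21 without CD93pos replicate 3. Both factors are also expressed in endothelial cells. The 6 endothelial markers summed to 268, 262 and 267 CPM in CD93pos and 1674, 175 and 316 CPM in CD93neg, with 5, 3 and 5 of them read in the CD93pos and 2, 2 and 3 in the CD93neg libraries. Tie1, a receptor that HSCs express as well, carried 163, 116 and 139 CPM in CD93pos and 891, 125 and 194 CPM in CD93neg, and Pecam1, also on HSCs, 84.5, 108 and 93.4 CPM in CD93pos and 783, 0 and 83.9 CPM in CD93neg, while the cadherin gene Cdh5 was at 0 throughout. Their part in the Erg and Fli1 values was not tested.

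**Figure D2:**
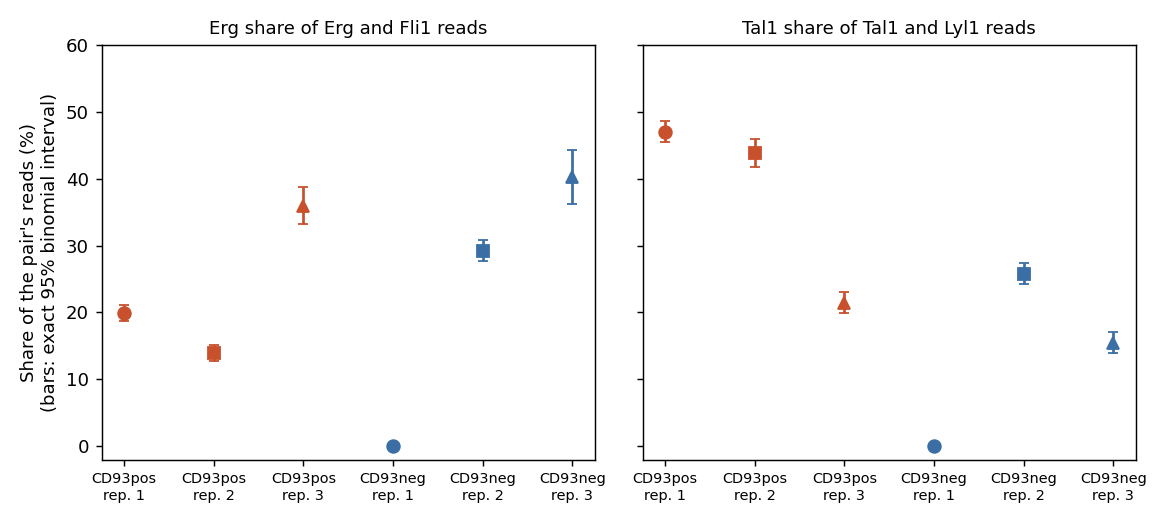
Share of reads (percent) of Erg among Erg and Fli1 reads and of Tal1 among Tal1 and Lyl1 reads in each library, with exact 95% binomial intervals. CD93neg replicate 1 lies near 0 in both, and the Tal1 share reaches 47.0% in CD93pos and 25.8% in CD93neg.

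Runx1 (ENSMUSG00000022952.16, chromosome 16, 92601466 to 92826149), needed for blood stem cells to arise in the embryo, had 451, 496 and 630.1 in CD93pos and 7118, 1166 and 564 in CD93neg. The CD93pos libraries were close to each other, and CD93neg replicate 3 lay among them. Runx1 had a log2 fold change of -1.68 (standard error 1.05; limma adjusted p = 0.539), and of -0.64 without CD93neg replicate 1 (95% interval -1.72 to 0.44).

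Hlf (ENSMUSG00000003949.16, chromosome 11, 90336536 to 90390895) had 517, 815 and 492 in CD93pos and 4382, 1167 and 1088 in CD93neg. Every CD93pos library lay below every CD93neg library, and CD93neg replicates 2 and 3 nearly coincided. The mean was 608 ± 179.6 in CD93pos, against 2212 ± 1879.5 in CD93neg (n = 3 each, SD), and the log2 fold change was -1.58 (standard error 0.82; limma adjusted p = 0.466). Without CD93neg replicate 1 it was -0.93 (95% interval -1.79 to -0.068; limma adjusted p = 0.266), and the ratio of means was 0.539, against 0.275 with all libraries.

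Mecom (ENSMUSG00000027684.16, chromosome 3, 29951296 to 30548008) had 586, 779 and 110.2 in CD93pos and 34.5, 2255 and 508 in CD93neg. It varied most of the 10 genes within both fractions, with coefficients of variation of 70.0% in CD93pos and 125% in CD93neg, and the groups overlapped. Mecom had a log2 fold change of 0.11 (standard error 1.91; limma adjusted p = 0.978), which turned to -1.53 without CD93neg replicate 1 (95% interval -4.24 to 1.18). Meis1 (ENSMUSG00000020160.18, chromosome 11, 18879817 to 19018985) had 3080.2, 3789 and 2889 in CD93pos and 12958, 3368 and 4118 in CD93neg. Apart from the high CD93neg replicate 1, the Meis1 libraries were close. The log2 fold change of Meis1 was -0.80 (standard error 0.46; limma adjusted p = 0.507), and -0.21 without that library (95% interval -0.69 to 0.28). Mecom, Meis1 and Runx1 overlap antisense transcripts (Mecomos, Gm16140 and Gm26626), each with at most 112 reads in any library, and Meis1 also overlaps Gm37818 on its own strand, with at most 92.

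**Figure D3:**
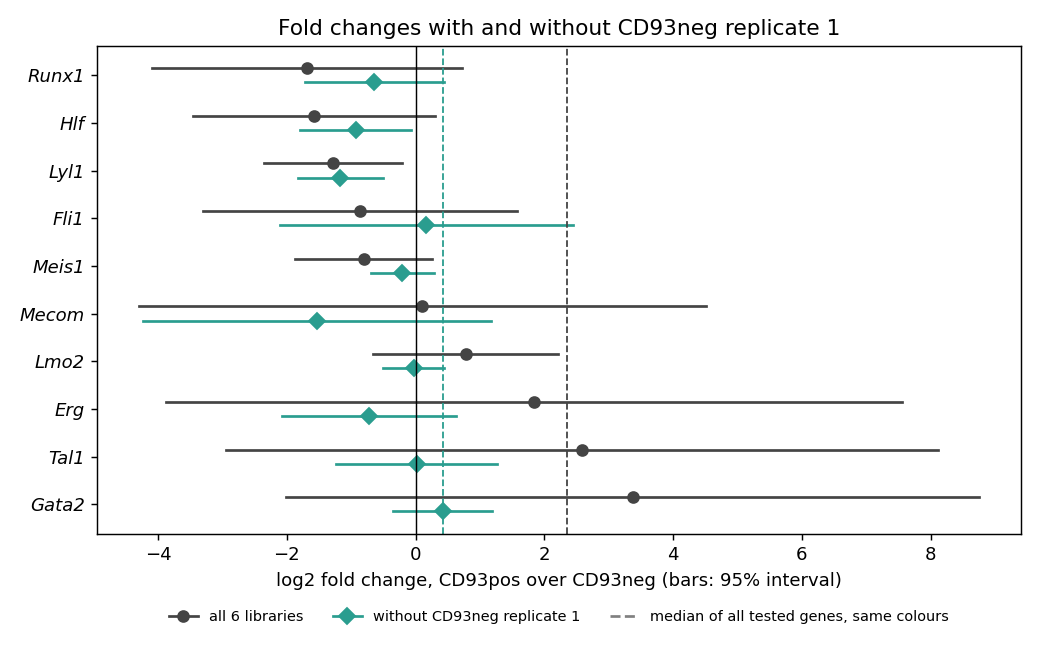
log2 fold change of each gene, CD93pos over CD93neg, with its 95% limma interval, from all 6 libraries and without CD93neg replicate 1, and lines at the medians of all tested genes, 2.36 and 0.43. The intervals of Lyl1 lie below 0 in both fits.

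Of the 10 genes, 5 had positive and 5 negative log2 fold changes, against 79.9% positive over all tested genes. Their median log2 fold change was -0.35, against 2.36 over all tested genes, and that of the 7 heptad genes was 0.78. With CD93neg replicate 1 left out, the median of the 10 was -0.42 with 3 positive, against 0.43 and 60.1% over all tested genes, and that of the heptad was -0.029. With quantile normalization, which gives all libraries the same distribution, 3 of the 10 were positive, against 50.5% of all tested genes, whose median was 0.022. The median of the 10 turned to 0.35 without CD93pos replicate 3 and to 0.11 without CD93neg replicate 2. All 10 genes were read in every library, as were 22.9% of the tested genes. In CD93neg replicate 1, 5 of the 10 had their highest value and the other 5 their lowest, while over all tested genes 12.96% were highest there and 79.7% were lowest or tied for lowest. Exactly 1 read there, as for Gata2, Tal1 and Erg, was found for 668 tested genes, 19.5% of those read in that library.

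Per length, as reads per kilobase of exon scaled to the assigned total (RPKM), Lmo2 was the most abundant of the 10 in CD93pos, with a level of 414 ± 45.6, and its lowest library lay above every library of the other 9. Lyl1 followed with 130.2 ± 26.3 RPKM, then Fli1 with 96.8 ± 58.5, Gata2 with 74.0 ± 22.8 and Meis1 with 69.3 ± 8.22, and the neighbours among these 4 overlapped. Tal1 with 32.3 ± 12.9 RPKM, Erg with 23.3 ± 5.76 and Hlf with 20.4 ± 5.39 overlapped with each other, below every library of Meis1 and above every library of Runx1. Runx1 with 9.84 ± 1.80 and Mecom with 8.84 ± 6.07 RPKM were lowest and overlapped (n = 3 each, SD). In CD93neg the order of mean levels began with Lmo2 at 299 ± 203 RPKM, Lyl1 at 295 ± 29.9 and Fli1 at 235 ± 258, went on with Meis1, Hlf, Runx1, Gata2, Erg and Tal1, and ended with Mecom at 16.9 ± 21.6, and all neighbours in it overlapped. That order rests on CD93neg replicate 1: without it the means were 414 RPKM for Lmo2, 285 for Lyl1, 89.7 for Fli1, 78.1 for Meis1, 53.0 for Gata2, 41.6 for Erg, 37.2 for Hlf, 30.2 for Tal1, 25.0 for Mecom and 16.0 for Runx1, which moved to the last place. Of the summed RPKM of the 10 genes, Lmo2 made up 45.9%, 46.8% and 49.0% in CD93pos and 4.87%, 33.7% and 44.1% in CD93neg. Lyl1 made up 12.5%, 11.8% and 21.7% in CD93pos and 22.6%, 23.3% and 30.2% in CD93neg. Gata2 made up 10.6%, 6.77% and 7.76% in CD93pos and 0.00470%, 5.42% and 4.45% in CD93neg, and Hlf 1.88%, 2.79% and 2.26% in CD93pos and 9.16%, 3.56% and 3.40% in CD93neg. These 4 genes had shares without overlap, those of Lmo2 and Gata2 larger and those of Lyl1 and Hlf smaller in CD93pos. A share moves with the other 9 genes too, and the normalized counts of Lmo2 and Gata2 themselves overlapped. Reads of the 10 genes together made up 3453, 3535 and 2567 CPM in CD93pos and 7315, 4306 and 3411 CPM in CD93neg, with overlap.

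**Figure D4:**
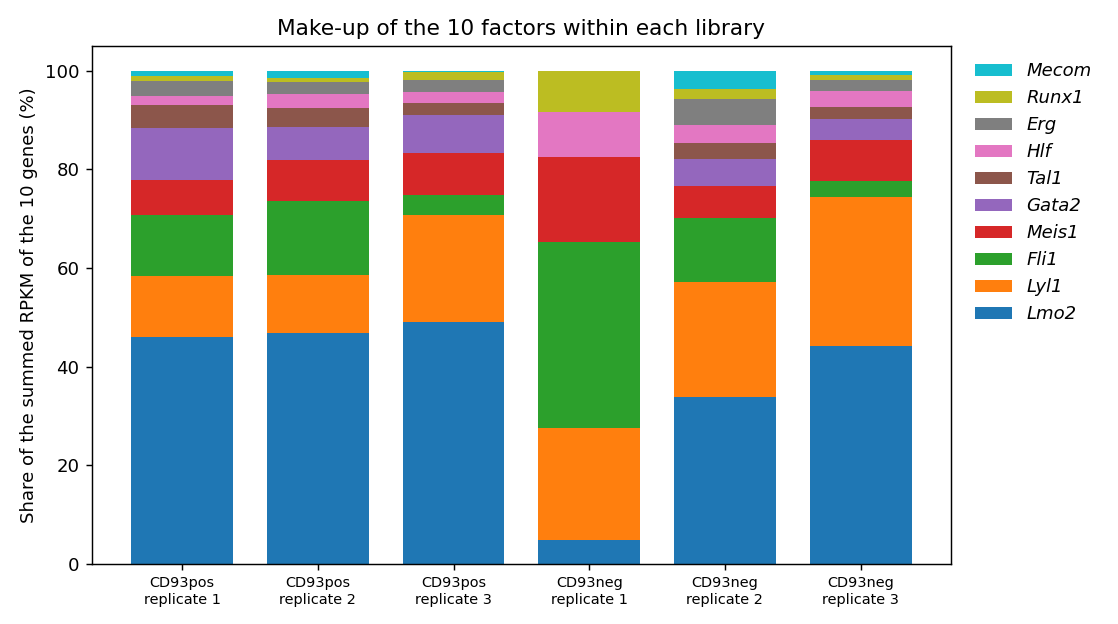
Share (percent) of each gene in the summed RPKM of the 10 genes, 1 bar per library, CD93pos at the left. Lmo2 fills 45.9%, 46.8% and 49.0% of the CD93pos bars and 4.87%, 33.7% and 44.1% of the CD93neg bars.

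Of 19 cofactors of these factors, all tested, none passed the test, 16 had a positive and 3 a negative log2 fold change, and their median was 1.99, against 2.36 over all tested genes. Leaving out CD93neg replicate 1, 11 were positive and the median was 0.37, against 0.43. Cbfa2t3, which encodes the ETO2 corepressor of Tal1 complexes, had 943, 1135 and 1047 in CD93pos and 3858, 2858 and 2226 in CD93neg. The log2 fold change of Cbfa2t3 was -1.48 (standard error 0.44; limma adjusted p = 0.16), or -1.28 without CD93neg replicate 1. Cbfa2t3 was the 1 of the 19 that was lower without overlap, against 1.92% of all tested genes. Ssbp3, named after its values were seen, was the 1 that was higher without overlap, against 18.3%. Ssbp3 had 48.6, 19.0 and 41.4 CPM in CD93pos and 0.706, 17.3 and 13.3 CPM in CD93neg. Tcf4, an E protein, had 721, 1403 and 834 in CD93pos and 12600.4, 860.0 and 1724 in CD93neg. Cbfb, the partner of Runx1, and Gfi1b, a repressor that acts in the erythroid and megakaryocyte lineages, had no read in CD93neg replicate 1, and their log2 fold changes of 3.47 and 3.54 (standard error 2.66 and 2.68) were 0.64 and 0.43 without it.

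Of 22 family relatives, 19 were tested and none passed. 16 were positive, their median log2 fold change was 3.54, or 4.09 with the 3 genes unread in a fraction at the bound given by 3 reads over that fraction, and 1.35 without CD93neg replicate 1, against 2.36 and 0.43 over all tested genes. At an unadjusted p under 0.05, 5 of the 19 were higher and 0 lower, against 11.8% and 0.381% of all tested genes. Groups did not overlap for 6 that were higher and 1 that was lower, against 18.3% and 1.92%. The lower one, named after its values were seen, was the ETS factor Etv6, a repressor needed by HSCs, with 109.9, 117 and 65.4 CPM in CD93pos and 1957, 209.6 and 159 CPM in CD93neg. Dbp, a PAR-family relative of Hlf, had 84, 145 and 32 reads in CD93pos, against 0, 0 and 0 in CD93neg (limma adjusted p = 0.0847). Lmo1, a relative of Lmo2, had 66, 86 and 82 reads in CD93pos, against 2, 0 and 0 in CD93neg (limma adjusted p = 0.135). For Runx3, a relative of Runx1, there were 657, 282 and 316 reads in CD93pos, against 0, 5 and 8 in CD93neg (limma adjusted p = 0.137). All 3 are among the 6 that were higher without overlap. Tef, Lmo4 and Runx2, of the same families and named after their values were seen, overlapped between the fractions. Tef had 186, 23 and 86 reads in CD93pos, against 0, 39 and 108 in CD93neg. The ETS factor Ets2 had 384, 114 and 225 reads in CD93pos, against 0, 0 and 22 in CD93neg (limma adjusted p = 0.24). Its neighbour in the family Ets1, named after its values were seen, had 423, 404 and 143 reads in CD93pos, against 1, 4 and 14 in CD93neg (limma adjusted p = 0.26). In CD93pos the level of Runx3 was 10.8 ± 2.65 RPKM and that of Dbp 4.27 ± 3.62 RPKM.

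Of 22 other regulators of HSCs, 19 were tested and none passed. Their median log2 fold change was 1.52 with 14 positive, and 0.21 without CD93neg replicate 1, against 2.36 and 0.43 over all tested genes. Zbtb16, which encodes the zinc finger factor Plzf, had 291, 279 and 41 reads in CD93pos, against 0, 0 and 0 in CD93neg (limma adjusted p = 0.0606). Cited2, a transcriptional coregulator needed by HSCs, had normalized counts of 539, 589.5 and 465 in CD93pos and 1.82, 128 and 163 in CD93neg (log2 fold change 3.76, SE 2.20; limma adjusted p = 0.513). These were the 2 of the 19 that were higher without overlap, against 18.3% of all tested genes. The homeobox gene Hoxa10, named after its values were seen, was the 1 that was lower without overlap, with 36.8, 25.5 and 43.2 CPM in CD93pos and 371, 116 and 66.6 CPM in CD93neg, against 1.92% of all tested genes. Myb, needed for adult-type blood formation, had 1679, 1770.2 and 335 in CD93pos and 0, 507 and 234 in CD93neg, and Satb1, a chromatin organiser, had 29.3, 146 and 21.5 in CD93pos and 0, 0 and 25.0 in CD93neg, all in normalized counts, and both genes overlapped between the fractions.

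Of 14 genes known to be regulated by these factors, 13 were tested and none passed. Their median log2 fold change was 1.22 with 8 positive, and 0.19 without CD93neg replicate 1, against 2.36 and 0.43 over all tested genes. Tek, the angiopoietin receptor, had normalized counts of 532, 499 and 96.0 in CD93pos and 0, 6.66 and 96.9 in CD93neg, with replicates 3 of both fractions nearly equal, so the groups overlapped (log2 fold change 5.02, SE 2.18; limma adjusted p = 0.41). Of the megakaryocyte genes, Itga2b had normalized counts of 3710.2, 1579 and 2751 in CD93pos and 0, 1295 and 599 in CD93neg, and Pf4 of 1026, 542 and 994 in CD93pos and 0, 379 and 311 in CD93neg. These were the 2 of the 13 targets without overlap, both higher in CD93pos, against 18.3% of all tested genes that were higher without overlap. Their log2 fold changes were 4.78 and 4.06 (standard error 2.58 and 2.58), and 1.52 and 1.256 without CD93neg replicate 1. The 6 megakaryocyte markers summed to 1355, 649 and 1218 CPM in CD93pos and 298, 409 and 307 CPM in CD93neg. Of these markers, 6, 5 and 6 were read in the CD93pos and 1, 4 and 5 in the CD93neg libraries. The 298 CPM of CD93neg replicate 1 came from Gp9 alone. Itga2b and Pf4 are themselves 2 of the 6 markers, so these sums restate their values in part. Itga2b alone carried 853, 344 and 625 CPM in CD93pos and 0, 295 and 128 CPM in CD93neg. The part of megakaryocyte transcripts in the Itga2b and Pf4 values was not tested.

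**Figure D5:**
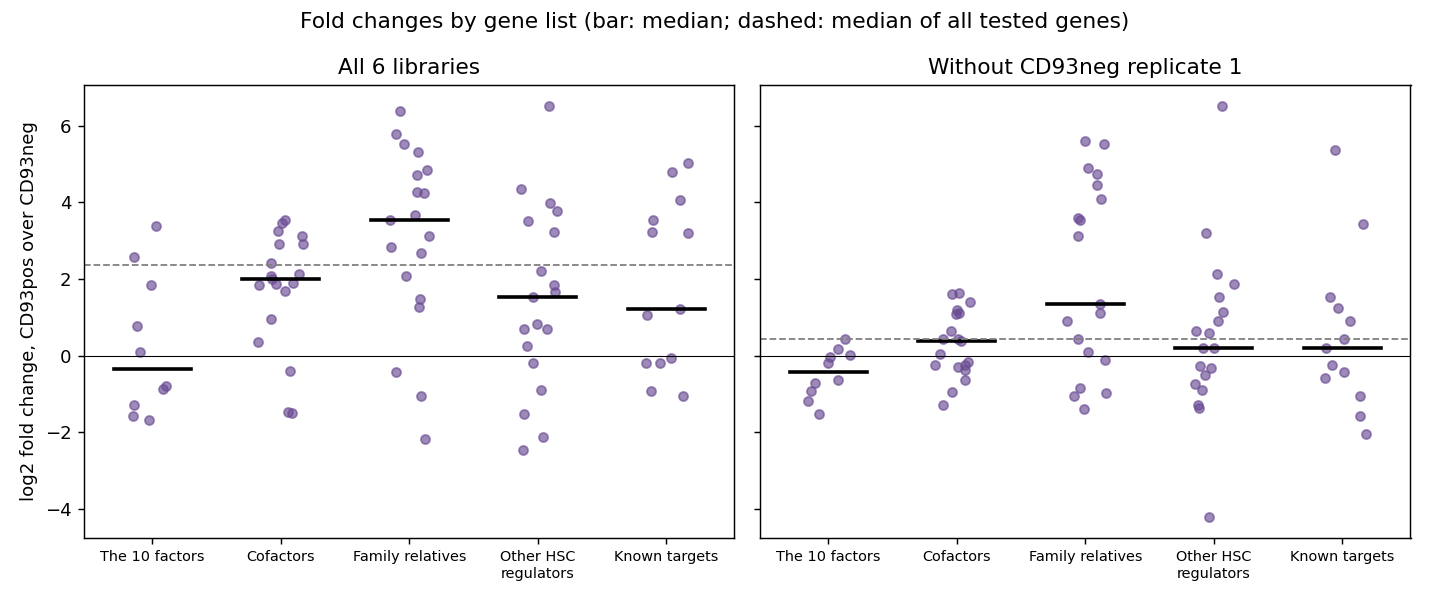
log2 fold change, CD93pos over CD93neg, of each tested gene of the 10 factors, their cofactors, family relatives, other HSC regulators and known targets, with list medians, from all 6 libraries and without CD93neg replicate 1. The medians of the 10 factors, -0.35 and -0.42, lie below those of all tested genes, 2.36 and 0.43.

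The gene most like each of the 10 across the 6 libraries was taken as the one with the smallest root mean square difference of centred log2 values, among the 6985 genes, predicted and unnamed ones left out, whose normalized counts averaged no less than 100. For Lyl1 it was Pik3ip1, an inhibitor of phosphoinositide 3-kinase, at 0.13, with 925, 957 and 1132 in CD93pos and 3161, 2506 and 2644 in CD93neg. For Hlf it was the zinc finger gene Zfp397, at 0.11, with 373, 601 and 313 in CD93pos and 3357, 723 and 771 in CD93neg. For Fli1 it was Adgrl4, an adhesion receptor of endothelium, at 0.23. It was Nfu1 for Meis1 at 0.14, D11Wsu47e for Erg at 0.12, Ino80c for Gata2 at 0.14, Sec22b for Lmo2 at 0.18, Gna11 for Tal1 at 0.23 and Zfp948 for Runx1 at 0.27. Mecom had the least close neighbour, Chpt1, at 0.53. Among the 10 themselves, Hlf and Meis1 were closest at 0.42, and Gata2 and Runx1 farthest apart at 4.74. These distances include CD93neg replicate 1, where Gata2 had a normalized count of 1.82 and Runx1 of 7118. Ino80c, Gna11 and D11Wsu47e, named for Gata2, Tal1 and Erg, were all at 0 there. Distances without that library are not given.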

How the data were processed

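Per the labels' protocols, a kit for low input made the libraries and 50 bp reads were paired. STAR, featureCounts (Subread 1.5.0-p1) and DESeq2 1.26 are named in the submitters' processing notes, beside GRCm38 and mm10 as builds. The notes used here name neither the annotation release nor a strand setting. The authors' deposited signal table holds counts over size factors. Dividing by the step of 1 read recovered whole reads for 100% of nonzero values (tolerance 0.001). The other table has, per the file headers, the authors' mean signal, log2 fold change, standard error, Wald score, p-value and adjusted p-value. It gave the symbols and holds adjusted p-values of at least 0.61 for the 10 genes.

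Fits used limma 3.58.1 (lmFit, then eBayes with trend, two-sided) on log2(normalized count + 1), which understates changes of low genes, for genes whose mean was at least 10. Alternatives included edgeR 4.0.16 and DESeq2 1.42.0 on recovered reads (R 4.3.3). Scripts were tested on simulated data. Exon lengths and positions came from GENCODE M21, which held 47310 of the 47937 IDs. Python 3.11.15, numpy 2.4.6, pandas 2.3.3, scipy 1.17.1 and matplotlib 3.10.9 did the rest. Named besides the 10 were, per list, up to 4 tested genes with the smallest unadjusted p, and the gene most like each of the 10. Members and lists were chosen with earlier results of these data known. The lists share a few genes, and the labels give no batch.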

Additional observations from a re-analysis of the deposited data

How the results depend on the processing

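None of the 10 genes passed the threshold in any of the 18 alternatives. Adjusted p-values over the alternatives were 0.116 to 0.99997 for Lyl1 and 0.261 to 0.888 for Hlf. Lyl1, Hlf, Meis1 and Runx1 were negative, and Gata2 and Tal1 positive, in all 18. Mecom turned to -1.21, -0.85, -0.92 and -1.39 with quantile normalization, edgeR, DESeq2 and library quality weights, in that order, and Erg to -1.05, -0.17, -0.26 and -0.37. With each library left out in turn, log2 fold changes spanned -1.53 to 1.46 for Mecom, -0.73 to 3.45 for Erg, -0.029 to 1.27 for Lmo2 and -1.88 to 0.17 for Fli1, the median of the 10 genes -0.68 to 0.35, and the difference in the Erg share -11.4 to 8.66 points and in the Tal1 share 16.8 to 31.6 points. The median of the 10 was -0.78 with quantile normalization, -0.78 with edgeR and -0.995 with DESeq2. Over all genes, 0 were called with limma (1436 at an unadjusted p under 0.05) and 0 with edgeR. A pseudocount of 0.1 gave 392 higher and 3 lower, TMM scaling 261 higher, and DESeq2 659 higher and 46 lower. Leaving out 1 library gave 0 to 1875 higher, with 774 without CD93pos replicate 2 and the most without CD93neg replicate 3, and 0 to 5 lower. With the replicate number as a block, 15 were higher and 9 lower. Same-numbered libraries correlated at 0.0372, 0.0191 and 0.0605 in their deviations, too little to pair them, although each correlated best with its own number. The cause of these shifts was not tested. CD93neg replicate 1, with reads for 29.0% of tested genes, limits the levels in its fraction.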

Other observations

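The 10 markers of HSCs were read in every library but CD93neg replicate 1, where 3 were read, and none passed the test. Their median log2 fold change was 1.15 with all libraries and -0.51 without CD93neg replicate 1, when 1 was positive, against a median of 0.43 over all tested genes. At an unadjusted limma p under 0.05, 1 was higher and 0 lower with all libraries, against 11.8% and 0.381% of all tested genes. Without CD93neg replicate 1, 0 were higher and 3 lower at that p, against 12.5% and 4.4%. The 10 G2 and mitosis markers summed to 1785, 1519 and 1616 CPM in CD93pos and 689.8, 141 and 229.8 CPM in CD93neg. All 10 were read in each CD93pos library and 3, 2 and 4 in the CD93neg libraries. In CD93neg replicate 1, Ccnb1 alone carried 687.7 CPM.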
